A study of Mus musculus with 16 samples.

Results

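The 36 genes described here encode parts of the machinery of DNA replication and of mitosis, and they were listed by what their proteins do. Earlier results of these data were known when the list was chosen. A probe that carries a single gene symbol was found for 35 of the 36, out of 19532 genes with such a probe. The cyclin B1 gene Ccnb1 was the exception and was not analysed here. All 35 measured members read above the limit for weak signals in all 16 samples, and all of them were among the 16581 genes tested. Of these 35, 20 act in replication or in the entry into it and are called replication and G1 genes below, and 15 act from S phase to the end of mitosis and are called S to M phase genes.

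Whole gonads of mouse embryos were measured on single-colour Agilent arrays. The 4 groups were females heterozygous for Nanos3 (Nanos3+/-), female knockouts (Nanos3-/-), male heterozygotes and male knockouts, each with 1 sample from embryonic days (E) 12.5, 13.5, 14.5 and 15.5. The labels give no strain, and the heterozygous controls carry the mutant allele too. Duplicates were stated for each stage, but each deposited sample combines both, so no error within a day is known and the 4 days serve as replicates. The number of arrays limits the precision.

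Nanos3, the deleted gene, codes for a protein that binds RNA and keeps primordial germ cells alive. Its log2 levels were 1.69, 3.49, 2.98 and 0.92 in male heterozygotes from E12.5 to E15.5 and -0.05, 0.03, -0.40 and -0.71 in male knockouts, with no overlap. In females they were 1.03, 0.27, -0.71 and -0.82 in heterozygotes and -0.49, 0.15, -0.50 and -0.30 in knockouts, which overlapped (log2 difference -0.23 ± 0.41, adjusted p = 0.709). Germ cell genes checked the female labels instead: Ddx4, an RNA helicase of germ cells, read 1.53 to 2.44 in female heterozygotes and -6.31 to -5.30 in female knockouts. The descriptions of the female samples say male, while titles, source and sex fields say female. The Y-linked Kdm5d was higher in males than in females by 5.52 ± 0.42 in heterozygotes and 5.76 ± 0.42 in knockouts (log2), as the titles have it. In whole tissue, fewer cells of a type and less RNA per cell cannot be told apart.

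A dividing cell prepares its replication origins in G1, copies its DNA in S phase and separates the copies in mitosis. ORC, Cdc6 and Cdt1 load the Mcm2 to Mcm7 helicase on origins, cyclins D and E with their kinases start S phase, and cyclins A and B with Cdk1 drive mitosis. Many replication genes are targets of E2F transcription factors, and many mitotic genes carry a cell cycle homology region (CHR), often near CCAAT boxes, through which the DREAM and MuvB complexes act. In the fetal gonad of the mouse, germ cells first divide by mitosis. Female germ cells then replicate their DNA once more and enter meiosis, whereas male germ cells stop dividing.

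The letters of these elements were searched in RefSeq's promoter windows (GRCm38.p6), which run from 250 bases before a gene's start to just past it and were found for 28 of the 35 measured members. The E2F sites TTTCGCGC or TTTGGCGC, searched on both strands, stood in the windows of 6 of 15 replication and G1 genes (Cdt1, Mcm3, Mcm5, Mcm6, Mcm7 and Pola1) and of 1 of 13 S to M phase genes (Cdk1), against 0.813% of all 32851 windows. CHR, searched as TTTGAA on both strands, stood in 10 of 13 S to M phase genes and in 1 of 15 replication and G1 genes (Mcm2), against 17.9% of all windows. CCAAT, on both strands, stood in 12 of 13 and 11 of 15, against 37.4%. The E2F letters can match on both strands at overlapping positions, as they do in Mcm5 and Mcm6. Such matches describe letters in a window and show no binding. The 250 bases before the gene start that the window uses follow for 6 members, 5′ to 3′ with matches in capitals. These members stand for both classes and return in the results below. For Mcm5, Top2a and Pola1 that start lies within the gene's annotated span. Their printed bases therefore lie partly inside the annotated gene, and nearly all of them do for Pola1. Mcm5 (chr8:75109259-75109508, plus strand), Mcm6 (chr1:128359706-128359955, minus strand) and Pola1 (chrX:93632156-93632405, minus strand) hold E2F letters. Cdc20 (chr4:118437344-118437593, minus strand) and Top2a (chr11:99024190-99024439, minus strand) hold CHR letters. Cdk1 (chr10:69352913-69353162, minus strand) holds both.
Mcm5: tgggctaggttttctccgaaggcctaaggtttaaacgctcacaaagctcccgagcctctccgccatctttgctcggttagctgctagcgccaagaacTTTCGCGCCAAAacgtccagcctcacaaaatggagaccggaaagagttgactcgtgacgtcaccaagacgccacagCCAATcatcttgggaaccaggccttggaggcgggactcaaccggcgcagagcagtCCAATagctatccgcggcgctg
Mcm6: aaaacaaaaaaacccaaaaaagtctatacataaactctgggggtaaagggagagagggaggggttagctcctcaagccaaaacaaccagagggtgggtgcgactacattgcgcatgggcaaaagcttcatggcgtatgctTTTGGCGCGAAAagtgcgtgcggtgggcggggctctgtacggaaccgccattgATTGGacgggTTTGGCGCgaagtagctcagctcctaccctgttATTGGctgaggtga
Pola1: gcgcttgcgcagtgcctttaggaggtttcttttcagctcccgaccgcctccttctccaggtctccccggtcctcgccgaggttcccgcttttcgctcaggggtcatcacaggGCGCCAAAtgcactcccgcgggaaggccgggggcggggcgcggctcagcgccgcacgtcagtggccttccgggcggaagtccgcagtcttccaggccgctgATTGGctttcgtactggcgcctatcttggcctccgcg
Cdk1: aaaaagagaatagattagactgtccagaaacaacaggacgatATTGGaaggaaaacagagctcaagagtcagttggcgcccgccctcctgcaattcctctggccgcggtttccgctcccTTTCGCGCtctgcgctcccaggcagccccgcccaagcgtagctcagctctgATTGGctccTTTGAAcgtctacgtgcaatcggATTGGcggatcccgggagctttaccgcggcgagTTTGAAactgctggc
Cdc20: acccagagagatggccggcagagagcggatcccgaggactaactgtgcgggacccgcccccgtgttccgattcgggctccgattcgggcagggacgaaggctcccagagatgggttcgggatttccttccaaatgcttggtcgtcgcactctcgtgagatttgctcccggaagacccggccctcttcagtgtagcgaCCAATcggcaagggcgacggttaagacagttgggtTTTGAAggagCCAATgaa
Top2a: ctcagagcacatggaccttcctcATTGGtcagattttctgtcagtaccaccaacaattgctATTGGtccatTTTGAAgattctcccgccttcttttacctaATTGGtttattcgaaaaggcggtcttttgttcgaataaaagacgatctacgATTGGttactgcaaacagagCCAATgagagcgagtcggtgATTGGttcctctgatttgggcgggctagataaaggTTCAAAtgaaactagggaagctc

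A level below is a log2 ratio of a probe's signal to its typical signal, so levels compare samples of 1 gene and not genes with each other. The 4 levels given for a group run from E12.5 to E15.5. The median level of the 35 members was 0.32, -0.26, -0.33 and -0.52 in female heterozygotes, and 0.59, 0.06, -0.05 and -0.21 in male heterozygotes. In both, E12.5 was the highest day and E15.5 the lowest. The medians were -0.26, -0.43, -0.20 and 0.08 in female knockouts, where E15.5 was the highest day, and 0.30, -0.0007, 0.15 and 0.13 in male knockouts. The medians of all genes stayed between -0.06 and 0.09 in all 16 samples.

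**Figure D1:**
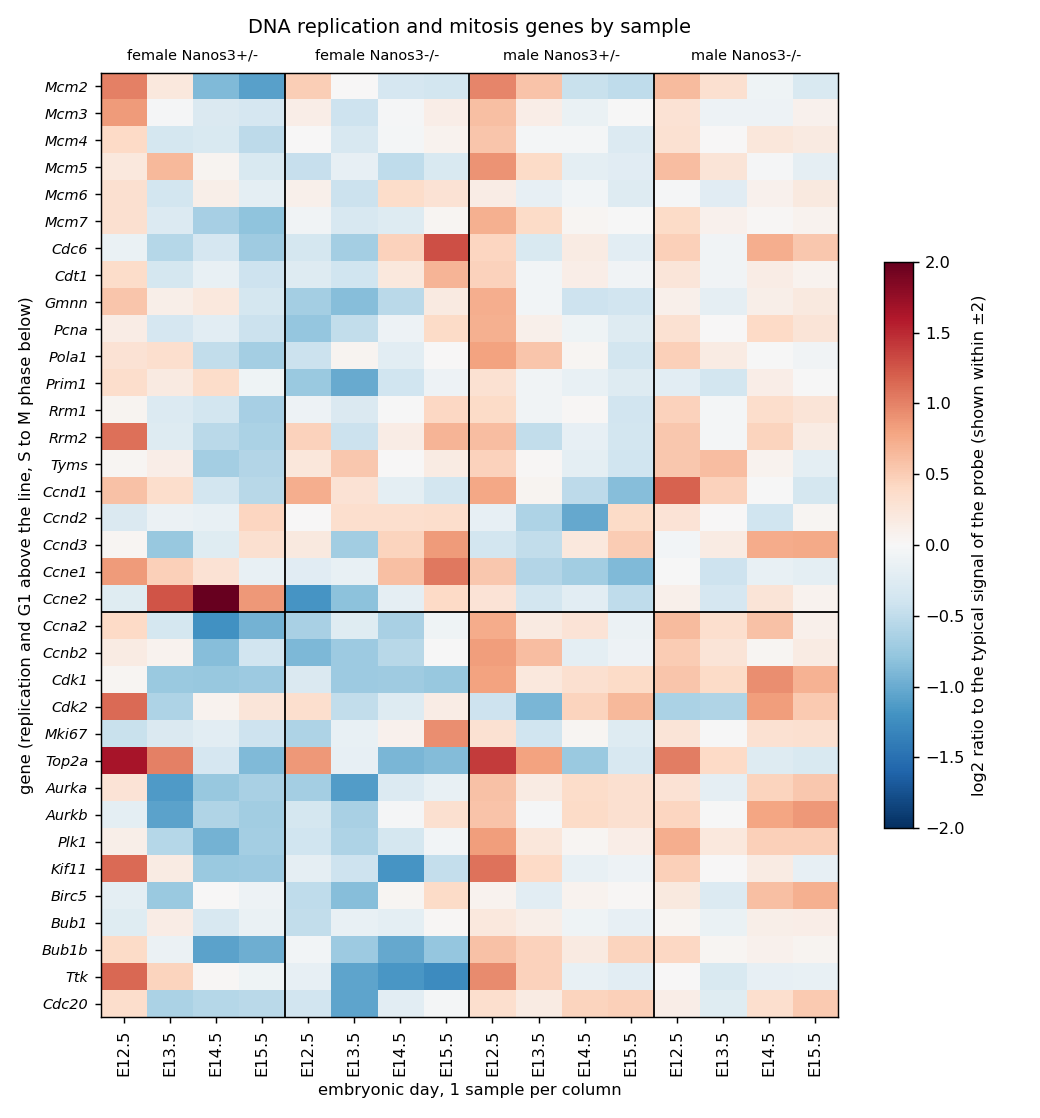
Log2 level of each of the 35 measured members (rows, replication and G1 genes above the line, S to M phase genes below) in each of the 16 samples (columns, by group and embryonic day); red is above and blue below a probe's typical signal, with colours ending at ±2. Most members are red at E12.5 in both heterozygous groups, and Ccne2 stands out in female heterozygotes, with 2.60 at E14.5.

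The knockout difference of most members moved over the days in females, and males follow further below. At E12.5 most members read lower in the knockout than in the heterozygote, and at E15.5 most read higher. The median log2 difference, knockout minus heterozygote, was -0.62, -0.10, 0.28 and 0.51 from E12.5 to E15.5, and 4, 10, 27 and 28 of the 35 members lay above 0. Over all genes the median was 0.08, 0.12, 0.14 and 0.07. A change from below 0 at E12.5 to above 0 at E15.5 was seen for 25 of 35 members (71.4%) and 17% of all genes. In the fit of a change per day, 13 members rose against the heterozygotes, none fell and 22 did not pass. None of the 13 calls passed every setting that used all 4 days. Of all genes tested, 1.85% rose and 1.36% fell, 3.21% in all. The median change was 0.40 per day over the members and -0.02 over all genes. Helicase, licensing, fork, nucleotide, cyclin and kinase genes were all among the 13, and so was Cdc20. The checkpoint genes Ttk, Bub1 and Bub1b were not.

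**Figure D2:**
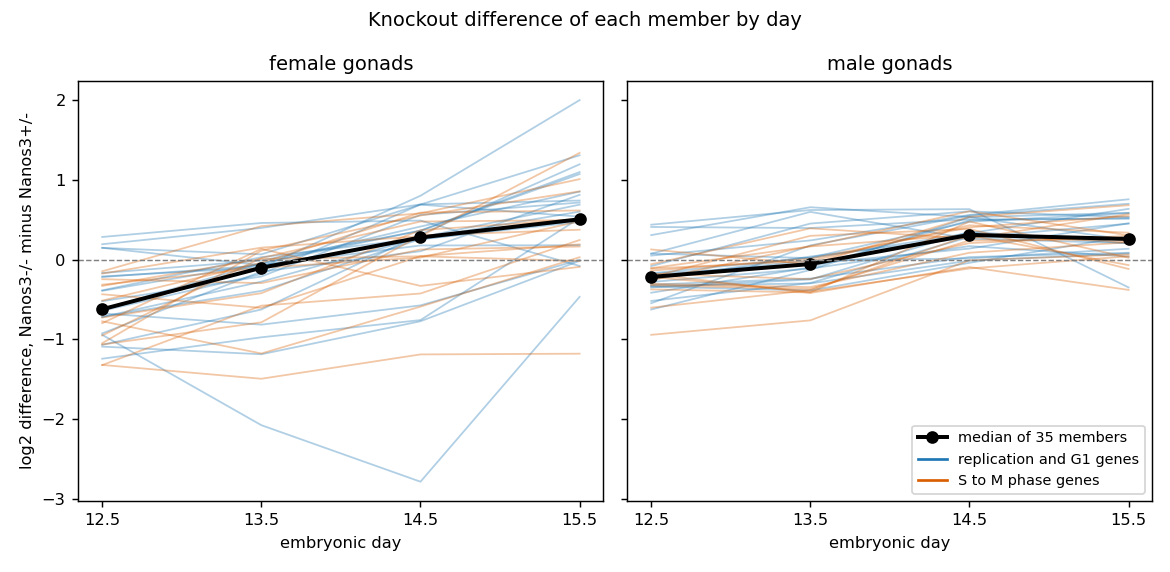
Log2 difference, knockout minus heterozygote, of each of the 35 members on each embryonic day in females (left) and males (right); thin lines are members, blue for replication and G1 genes and orange for S to M phase genes, and the black line is their median. The female median goes from -0.62 at E12.5 to 0.51 at E15.5, the male one from -0.22 to 0.26, and the line that dips to -2.78 in females is Ccne2.

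Of the 6 helicase subunits, which unwind DNA as a ring, Mcm3, Mcm4 and Mcm7 passed the test. Mcm7 had log2 levels of 0.33, -0.27, -0.67 and -0.81 in female heterozygotes and of -0.06, -0.32, -0.25 and 0.04 in female knockouts. Heterozygotes thus read higher at E12.5 and lower at E14.5 and E15.5, and the difference changed by 0.42 ± 0.06 per day (adjusted p = 0.0258). Mcm3 had log2 levels of 0.85, -0.02, -0.28 and -0.34 in female heterozygotes and of 0.14, -0.41, -0.03 and 0.13 in female knockouts. The knockout was below the heterozygote on the first 2 days and above it on the last 2, with a change of 0.42 ± 0.07 per day (adjusted p = 0.0344). Mcm4 had log2 levels of 0.39, -0.36, -0.30 and -0.52 in female heterozygotes and of 0.01, -0.33, -0.03 and 0.08 in female knockouts. Its change was the smallest of the 13, 0.32 ± 0.06 per day (adjusted p = 0.0471). In males, Mcm7 levels were 0.71, 0.38, 0.03 and -0.01 in heterozygotes and 0.38, 0.08, 0.02 and 0.07 in knockouts. In males, Mcm3 levels were 0.60, 0.14, -0.13 and -0.0009 in heterozygotes and 0.28, -0.10, -0.10 and 0.09 in knockouts. In males, Mcm4 levels were 0.55, -0.03, -0.04 and -0.27 in heterozygotes and 0.30, 0.0048, 0.23 and 0.18 in knockouts. Male knockouts were below heterozygotes at E12.5 and above them at E15.5 for all 3 subunits. Mcm2 missed the threshold (change 0.45 ± 0.09 per day, adjusted p = 0.0512) and was called under 3 other settings. Mcm5 and Mcm6 were not called, at 0.23 ± 0.09 and 0.25 ± 0.06 per day.

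Both helicase loaders passed, and their inhibitor did not. Cdc6 had log2 levels of -0.14, -0.57, -0.34 and -0.72 in female heterozygotes and of -0.35, -0.67, 0.46 and 1.28 in female knockouts. The 2 female groups lay close together until E13.5, and the knockout at E15.5 was the highest of the 8 female samples. Cdt1 had log2 levels of 0.36, -0.36, -0.15 and -0.41 in female heterozygotes and of -0.26, -0.40, 0.21 and 0.69 in female knockouts. Differences changed by 0.75 ± 0.11 per day for Cdc6 (adjusted p = 0.0258) and by 0.56 ± 0.07 for Cdt1 (adjusted p = 0.0182). In males, Cdc6 levels were 0.42, -0.31, 0.17 and -0.22 in heterozygotes and 0.48, -0.07, 0.73 and 0.54 in knockouts. In males, Cdt1 levels were 0.46, -0.05, 0.13 and -0.07 in heterozygotes and 0.24, -0.06, 0.15 and 0.07 in knockouts. The male groups of Cdt1 differed by between -0.22 and 0.14 on the 4 days. Gmnn had log2 levels of 0.56, 0.12, 0.22 and -0.35 in female heterozygotes and of -0.68, -0.86, -0.54 and 0.17 in female knockouts. Gmnn encodes geminin, which binds Cdt1 and blocks reloading, and its knockout samples were below the heterozygotes until E14.5 and above at E15.5 (change 0.55 ± 0.12 per day, adjusted p = 0.0613). In males, Gmnn levels were 0.73, -0.05, -0.42 and -0.39 in heterozygotes and 0.11, -0.18, 0.11 and 0.20 in knockouts.

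At the replication fork, Pcna, the sliding clamp, and Pola1, the catalytic subunit of the priming polymerase, passed. Pcna had log2 levels of 0.15, -0.34, -0.21 and -0.42 in female heterozygotes and of -0.77, -0.49, -0.10 and 0.39 in female knockouts. Pola1 had log2 levels of 0.29, 0.33, -0.49 and -0.68 in female heterozygotes and of -0.43, 0.06, -0.21 and 0.01 in female knockouts. Both were lower in the knockout at E12.5 and E13.5 and higher at E14.5 and E15.5. The change was 0.55 ± 0.08 per day for Pcna (adjusted p = 0.0258) and 0.48 ± 0.07 for Pola1 (adjusted p = 0.0260). In males, Pcna levels were 0.72, 0.10, -0.09 and -0.26 in heterozygotes and 0.30, 0.0049, 0.40 and 0.26 in knockouts. In males, Pola1 levels were 0.81, 0.55, 0.03 and -0.36 in heterozygotes and 0.47, 0.17, -0.01 and -0.07 in knockouts. Pcna turned from lower to higher in male knockouts after E13.5, and Pola1 after E14.5. Among the nucleotide enzymes, Rrm2, the small subunit of ribonucleotide reductase, passed with 0.67 ± 0.09 per day (adjusted p = 0.0211). Rrm2 had log2 levels of 1.10, -0.26, -0.54 and -0.63 in female heterozygotes and of 0.46, -0.44, 0.15 and 0.68 in female knockouts. In males, Rrm2 levels were 0.62, -0.49, -0.17 and -0.37 in heterozygotes and 0.54, -0.04, 0.44 and 0.16 in knockouts. In male knockouts Rrm2 was above the heterozygote from E13.5 on. Its partner Rrm1, the large subunit, was not called (0.41 ± 0.08 per day, adjusted p = 0.0519).

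Cyclin E1, whose gene Ccne1 drives the start of S phase with Cdk2, had the largest change of all members, 0.77 ± 0.09 per day (adjusted p = 0.0160). Ccne1 had log2 levels of 0.85, 0.47, 0.29 and -0.14 in female heterozygotes and of -0.22, -0.15, 0.61 and 1.05 in female knockouts. The heterozygous levels were lower on each later day and the knockout levels higher, so that the order of the groups turned between E13.5 and E14.5. In males, Ccne1 levels were 0.53, -0.59, -0.70 and -0.89 in heterozygotes and -0.01, -0.41, -0.14 and -0.19 in knockouts. Male knockouts were below heterozygotes at E12.5 and above them on the other 3 days. None of the 3 D cyclins was called, with changes of 0.03 ± 0.07, -0.11 ± 0.14 and 0.18 ± 0.10 per day for Ccnd1, Ccnd2 and Ccnd3.

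Of the S to M phase genes, 4 of 15 passed. Ccna2 and Ccnb2 encode cyclins A2 and B2, Aurkb encodes the Aurora kinase of the chromosomal passenger complex, and Cdc20 activates the anaphase-promoting complex. Ccna2 had log2 levels of 0.40, -0.35, -1.21 and -0.95 in female heterozygotes and of -0.64, -0.24, -0.65 and -0.09 in female knockouts. Ccnb2 had log2 levels of 0.16, 0.06, -0.85 and -0.39 in female heterozygotes and of -0.90, -0.72, -0.55 and -0.01 in female knockouts. Both cyclins were lower in the knockout at E12.5 and higher than the heterozygote at E14.5 and E15.5. Changes were 0.61 ± 0.10 per day for Ccna2 (adjusted p = 0.0299) and 0.54 ± 0.10 for Ccnb2 (adjusted p = 0.0445). Aurkb had log2 levels of -0.20, -1.06, -0.61 and -0.69 in female heterozygotes and of -0.35, -0.65, -0.03 and 0.31 in female knockouts. Cdc20 had log2 levels of 0.34, -0.63, -0.58 and -0.54 in female heterozygotes and of -0.38, -1.05, -0.21 and -0.04 in female knockouts. Aurkb was higher in the knockout from E13.5 on and Cdc20 from E14.5 on. Their changes were 0.36 ± 0.07 per day (adjusted p = 0.0459) and 0.45 ± 0.08 per day (adjusted p = 0.0407). In males, Ccna2 levels were 0.74, 0.18, 0.28 and -0.12 in heterozygotes and 0.63, 0.34, 0.59 and 0.10 in knockouts. In males, Ccnb2 levels were 0.84, 0.62, -0.20 and -0.10 in heterozygotes and 0.52, 0.25, 0.04 and 0.16 in knockouts. In males, Aurkb levels were 0.56, -0.03, 0.38 and 0.32 in heterozygotes and 0.43, -0.01, 0.78 and 0.87 in knockouts. The male groups overlapped for all 3 genes. In males, Cdc20 levels were 0.34, 0.16, 0.45 and 0.48 in heterozygotes and 0.13, -0.24, 0.34 and 0.52 in knockouts. The Cdc20 groups overlapped in males too.

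Beyond the members stood lists of other genes, also chosen with earlier results of these data known. In the same fit 1.85% of all genes rose and 1.36% fell. Of the listed genes, 7 of 40 other replication genes and 10 of 47 other mitosis genes rose, and none fell. The largest were Dut (0.89 ± 0.09 per day), which removes dUTP, Rpa2 (0.69 ± 0.10), a subunit of the single-strand binding protein, and Mcm10 (0.67 ± 0.09), which helps to start forks. Among mitosis genes they were Mybl2 (1.19 ± 0.14 per day), a transcription factor of the MuvB complex, Cenpa (0.66 ± 0.11), the histone of centromeres, and Nusap1 (0.63 ± 0.09), a spindle protein. Erythroid markers moved in the same direction: the median of the 8 measured of 10 was 0.87, 1.69, 3.09 and 3.51 (log2 difference) from E12.5 to E15.5, and 4 of 8 rose in the fit. Their median levels ran from -1.07 to 0.17 in female heterozygotes and from 0.34 to 3.86 in female knockouts. Germ cell markers had median differences of -7.79, -6.14, -5.14 and -4.73. The part of either in the result was not tested.

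Calls of the change in females were made only with all 4 days. With any 1 day left out neither a member nor any other gene was called by limma, while 18 to 24 members had an unadjusted p under 0.05 and the median change stayed between 0.27 and 0.41 per day. Leaving out a day takes residual degrees of freedom from a fit that has 4. As no gene passed at all, these fits cannot show whether the calls depend on a particular day. With arrays scaled as deposited 3 members were called (Ccne1, Cdc6 and Rrm2), with a median change of 0.31 over the members against -0.11 over all genes.

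In males the median difference of the members was -0.22, -0.06, 0.31 and 0.26, and 7, 15, 30 and 31 of 35 were above 0. A turn from below to above 0 was again seen for 25 of 35, against 16% of all genes. No member passed the test of the change per day (limma; 14 had an unadjusted p under 0.05, and 4.11% of all genes were called, 0.446% higher and 3.66% lower). The largest changes were Gmnn at 0.43 ± 0.12 per day (adjusted p = 0.101), Ccne1 at 0.41 ± 0.09 (adjusted p = 0.0566) and Ttk at 0.38 ± 0.08 (adjusted p = 0.0535). Ccne1 was called when all its probes were averaged (0.47 ± 0.09, adjusted p = 0.0413). The median change of the members was 0.20 per day, and with arrays scaled as deposited it was -0.01 against -0.19 over all genes. The difference between the sexes was called for none of the 35 (limma; 10 had an unadjusted p under 0.05, and 0.796% of all genes were called, 0.0422% higher and 0.754% lower), with Cdt1 nearest at -0.45 ± 0.10 per day (adjusted p = 0.0940). The 95% interval of that difference was -0.68 to -0.22 for Cdt1 and -0.66 to -0.06 for Ccne1.

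Averaged over the 4 days, 6 of the 35 members passed the test between female knockouts and heterozygotes. 1 member rose (Tyms), 5 fell (Mcm5, Prim1, Ccne2, Top2a and Ttk) and 29 did not pass, whereas 20.9% of all genes tested rose and 12.9% fell, 33.8% in all. The median difference was 0.01 over the members and 0.11 over all genes, and scaling the arrays as deposited moved the latter to 0.0014. With E12.5, E13.5, E14.5 or E15.5 left out, 5, 1, 1 and 8 members were called, and shares of all genes in these fits are not given here.

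Mcm5 was the 1 helicase subunit called. Mcm5 had log2 levels of 0.22, 0.64, 0.06 and -0.30 in female heterozygotes and of -0.46, -0.17, -0.51 and -0.30 in female knockouts. The knockout was the lower sample on all 4 days, by a log2 difference of -0.52 ± 0.14 on average (adjusted p = 0.0230), although both groups met at E15.5. In males, Mcm5 levels were 0.90, 0.38, -0.20 and -0.22 in heterozygotes and 0.62, 0.26, -0.03 and -0.19 in knockouts. The male groups differed by -0.05 ± 0.14 (adjusted p = 0.826). Prim1 had log2 levels of 0.35, 0.17, 0.37 and -0.09 in female heterozygotes and of -0.74, -1.01, -0.40 and -0.11 in female knockouts. Prim1, the catalytic primase subunit that makes the RNA primers, was lower in the knockout (log2 difference -0.77 ± 0.21, adjusted p = 0.0218), and again the groups met at E15.5. In males, Prim1 levels were 0.30, -0.07, -0.15 and -0.26 in heterozygotes and -0.22, -0.36, 0.13 and -0.01 in knockouts. Tyms had log2 levels of 0.04, 0.14, -0.69 and -0.58 in female heterozygotes and of 0.23, 0.53, 0.01 and 0.16 in female knockouts. Tyms encodes thymidylate synthase, the source of dTMP, and was higher in the knockout on all 4 days (0.51 ± 0.13, adjusted p = 0.0160). Its other probes gave smaller female differences of 0.32 and 0.35, and the call did not hold with the mean of all its probes. In males, Tyms levels were 0.46, 0.02, -0.20 and -0.40 in heterozygotes and 0.54, 0.62, 0.07 and -0.19 in knockouts. The male difference was 0.29 ± 0.13 (adjusted p = 0.109).

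Ccne2, the gene of cyclin E2, showed the largest difference of the members. Ccne2 had log2 levels of -0.23, 1.26, 2.60 and 0.87 in female heterozygotes and of -1.18, -0.82, -0.18 and 0.40 in female knockouts. The heterozygous level peaked at E14.5, where the knockout differed by -2.78, and the difference had shrunk to -0.47 at E15.5. On average the knockout minus heterozygote difference was -1.57 ± 0.34 (adjusted p = 0.00969). In males, Ccne2 levels were 0.28, -0.37, -0.21 and -0.51 in heterozygotes and 0.11, -0.34, 0.26 and 0.07 in knockouts. The 8 male samples lay between -0.51 and 0.28, and the male difference was 0.23 ± 0.34 (adjusted p = 0.630). The difference between the sexes, 1.79 ± 0.48, did not pass (adjusted p = 0.113). Ccne1 did not show this peak.

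Ttk, also called Mps1, is a kinase of the spindle checkpoint. Ttk had log2 levels of 1.15, 0.44, 0.02 and -0.08 in female heterozygotes and of -0.17, -1.05, -1.17 and -1.26 in female knockouts. The 2 groups of females were apart on every day by between -1.49 and -1.18, and the average of -1.29 ± 0.17 (adjusted p = 0.00170) held under every setting tried, each day left out included. In males, Ttk levels were 0.95, 0.46, -0.15 and -0.21 in heterozygotes and 0.01, -0.30, -0.16 and -0.15 in knockouts. Male knockouts were below heterozygotes at E12.5 and E13.5 and level with them later. The male difference of -0.41 ± 0.17 did not pass (adjusted p = 0.0934), but was called with arrays scaled as deposited, to the same median or by quantiles (-0.53, -0.49 and -0.48). The difference between the sexes was 0.88 ± 0.24 (adjusted p = 0.118). Top2a had log2 levels of 1.64, 1.01, -0.33 and -0.89 in female heterozygotes and of 0.87, -0.17, -0.92 and -0.86 in female knockouts. Top2a, the topoisomerase that untangles sister chromatids, was lower, close to the threshold (-0.63 ± 0.21, adjusted p = 0.0474), with the knockout lower until E14.5. In males, Top2a levels were 1.40, 0.81, -0.74 and -0.33 in heterozygotes and 1.03, 0.40, -0.26 and -0.30 in knockouts.

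**Figure D3:**
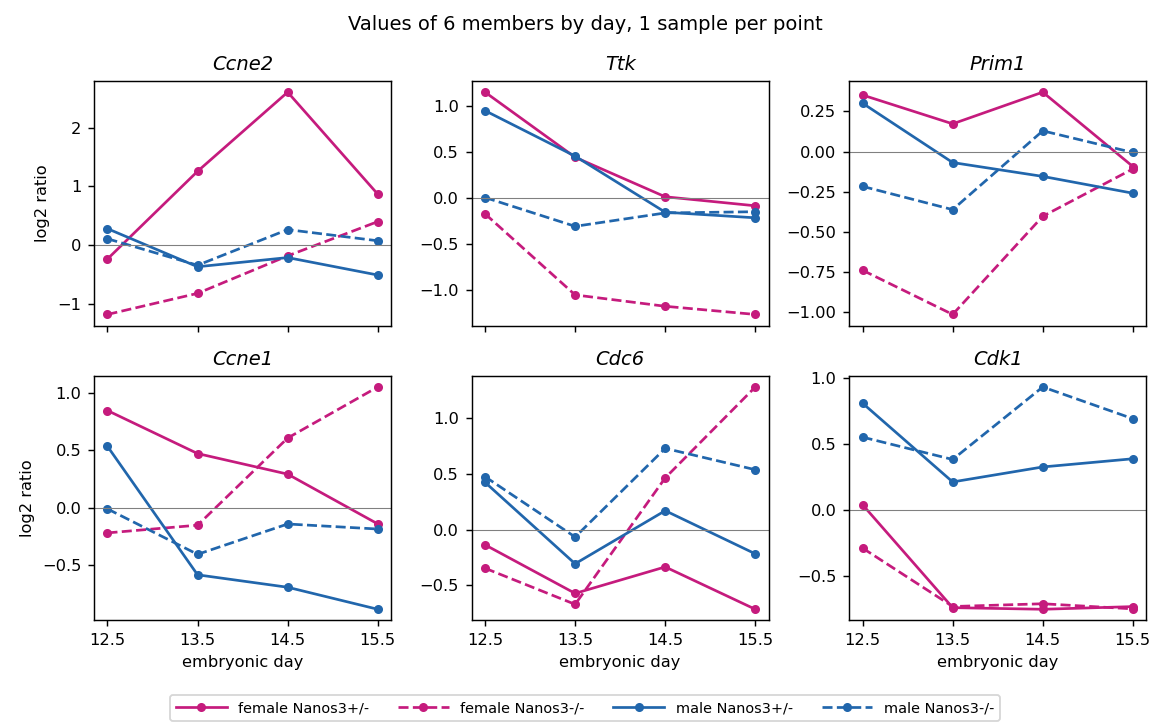
Log2 levels of Ccne2, Ttk, Prim1, Ccne1, Cdc6 and Cdk1 by embryonic day; each point is 1 sample, pink for females and blue for males, with solid lines for heterozygotes and dashed lines for knockouts. Ccne2 peaks at 2.60 in female heterozygotes at E14.5, Ttk in female knockouts is the lowest of the 4 groups on every day, and all 8 male samples of Cdk1 lie above the 8 female ones.

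In males 2 members rose, both D cyclins that start G1 progression with Cdk4 and Cdk6, and none fell, while 21.7% of all genes rose and 12.6% fell, 34.3% in all. Ccnd1 had log2 levels of 0.58, 0.36, -0.37 and -0.55 in female heterozygotes and of 0.73, 0.29, -0.19 and -0.37 in female knockouts. In males, Ccnd1 levels were 0.77, 0.06, -0.52 and -0.86 in heterozygotes and 1.18, 0.45, -0.01 and -0.35 in knockouts. Ccnd1 was higher in the male knockout on all 4 days, by between 0.40 and 0.51 (0.46 ± 0.09, adjusted p = 0.00632). In females the difference was 0.11 ± 0.09 (adjusted p = 0.364). Ccnd3 had log2 levels of 0.04, -0.76, -0.24 and 0.32 in female heterozygotes and of 0.19, -0.70, 0.45 and 0.85 in female knockouts. In males, Ccnd3 levels were -0.36, -0.49, 0.21 and 0.51 in heterozygotes and -0.05, 0.16, 0.74 and 0.76 in knockouts. Ccnd3 was higher in knockouts on all 4 days in both sexes, passing in males (0.44 ± 0.13, adjusted p = 0.0331) and not in females (0.36 ± 0.13, adjusted p = 0.0642). The median difference of all genes in males was 0.12, and 0.01 with arrays scaled as deposited, where neither D cyclin passed and Ttk was the 1 member called. Whether the knockout effect differed between females and males was tested too, and none of the 35 members passed (limma; 5 had an unadjusted p under 0.05, and 0.874% of all genes were called, 0.416% higher and 0.458% lower in males). Without the term for embryonic day, 2 members were called in females and 0 in males. With E14.5 left out no member was called in males. For these changed fits, too, shares of all genes are not given here.

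Other genes of the same processes also fell in females. Of 40 other replication genes 12 fell and 1 rose, and of 47 other mitosis genes 16 fell and 1 rose. Of all genes 12.9% fell and 20.9% rose in females. Pole (-1.33 ± 0.15), the leading strand polymerase, Orc1 (-1.19 ± 0.26), which marks origins, and Cdc7 (-1.19 ± 0.16), the kinase that fires them, had the largest log2 differences downward, and Pole2 (0.49 ± 0.13) rose. Kif18a (-1.60 ± 0.27), a kinesin that aligns chromosomes, Ncapg (-1.41 ± 0.12), a condensin subunit, and Ect2 (-1.38 ± 0.28), which directs cytokinesis, fell, and Bub3 (0.40 ± 0.13) rose. In males 4 other replication genes fell and 2 rose, among them Pole (-0.86 ± 0.15) and Gins2 (0.66 ± 0.12). Of the other mitosis genes 3 fell in males, among them Mad2l1 (-0.82 ± 0.14) and Espl1 (-0.80 ± 0.19). As shares, these male counts lie below those of all genes, of which 12.6% fell and 21.7% rose. All 8 erythroid markers rose in female knockouts (median 2.29) and 1 of 8 in male ones (median 0.73). The part of these cells in the member values was not tested.

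Male gonads read higher than female gonads for many S to M phase genes, in both genotypes. In heterozygotes 8 members were higher in males, 1 was lower and 26 did not pass, against 11.7% and 12.1% of all genes, 23.8% in all. In knockouts 12 were higher, none was lower and 23 did not pass, against 8.99% and 9.05%, 18.0% in all. Of the 15 S to M phase genes, 7 were higher in heterozygous males and 11 in knockout males, with median differences, male minus female, of 0.54 and 0.69 on the log2 scale. Of the 20 replication and G1 genes, 1 was higher and 1 lower in heterozygotes, and 1 was higher in knockouts, with medians of 0.11 and 0.22. Both genotypes called Ccna2, Cdk1, Aurka, Aurkb, Plk1, Bub1b and Cdc20. The share of all genes called in both genotypes was not computed, so this overlap has no background beside it. The median over all genes was 0.04 and 0.03.

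**Figure D4:**
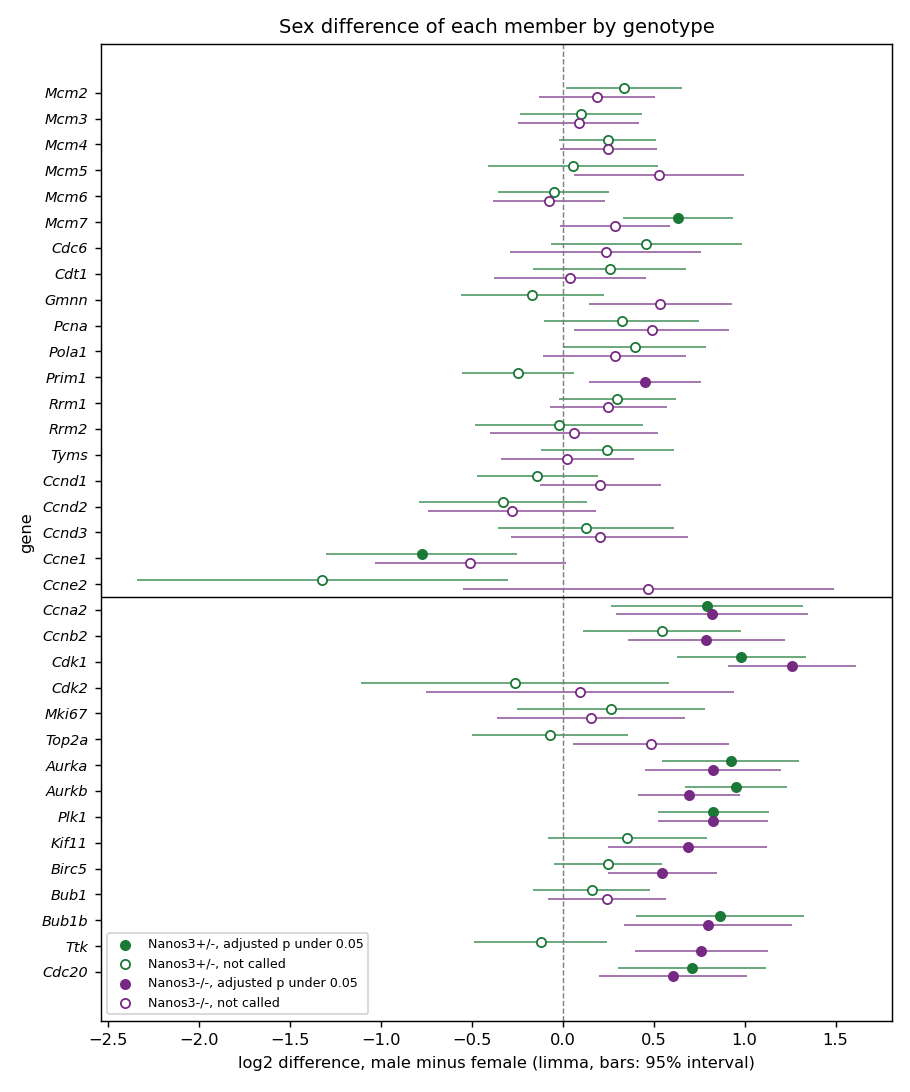
Log2 difference, male minus female, of each of the 35 members in heterozygotes (green) and knockouts (purple), with the 95% interval of the limma fit; filled points have an adjusted p under 0.05. Filled points gather among the S to M phase genes below the line, with Cdk1 at 0.98 and 1.26.

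Cdk1, the kinase that drives mitosis, had the largest called difference in both genotypes. Cdk1 had log2 levels of 0.04, -0.74, -0.75 and -0.73 in female heterozygotes and of -0.29, -0.73, -0.71 and -0.75 in female knockouts. In males, Cdk1 levels were 0.81, 0.21, 0.33 and 0.39 in heterozygotes and 0.55, 0.38, 0.93 and 0.69 in knockouts. The 8 male samples (lowest 0.21) and the 8 female samples (highest 0.04) did not overlap. Males were higher by 0.98 ± 0.16 in heterozygotes (adjusted p = 0.00263) and by 1.26 ± 0.16 in knockouts (adjusted p = 0.000587), and these calls and those of Plk1 held under every setting tried. The knockout differences of Cdk1 within a sex were -0.07 ± 0.14 in females and 0.21 ± 0.14 in males, neither called. Its partner cyclins Ccna2 and Ccnb2, with the values given above, were higher in males by 0.79 ± 0.23 and 0.54 ± 0.19 in heterozygotes and by 0.82 ± 0.23 and 0.79 ± 0.19 in knockouts. Ccnb2 in heterozygotes missed the threshold (adjusted p = 0.0693). The Ccna2 call was kept under 5 of 12 other settings in heterozygotes and 3 of 12 in knockouts.

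The mitotic kinases and spindle genes followed. Plk1 had log2 levels of 0.12, -0.58, -0.94 and -0.67 in female heterozygotes and of -0.39, -0.62, -0.35 and -0.06 in female knockouts. In males, Plk1 levels were 0.84, 0.23, 0.04 and 0.14 in heterozygotes and 0.73, 0.21, 0.47 and 0.47 in knockouts. Plk1, a kinase of mitotic entry and spindle assembly, was higher in males on all 4 days in both genotypes (0.83 ± 0.14 in heterozygotes, adjusted p = 0.00287, and 0.83 ± 0.14 in knockouts, adjusted p = 0.00273). Aurka had log2 levels of 0.28, -1.13, -0.76 and -0.65 in female heterozygotes and of -0.67, -1.11, -0.28 and -0.15 in female knockouts. In males, Aurka levels were 0.59, 0.17, 0.36 and 0.32 in heterozygotes and 0.28, -0.17, 0.45 and 0.53 in knockouts. Aurka, the Aurora kinase of the spindle poles, was higher in males by 0.92 ± 0.17 (adjusted p = 0.00473) and 0.83 ± 0.17 (adjusted p = 0.00816). Aurkb, whose levels are given above, was higher by 0.95 ± 0.12 in heterozygotes (adjusted p = 0.00102) and 0.69 ± 0.12 in knockouts (adjusted p = 0.00454). Birc5 had log2 levels of -0.20, -0.75, 0.01 and -0.10 in female heterozygotes and of -0.51, -0.85, 0.04 and 0.38 in female knockouts. In males, Birc5 levels were 0.07, -0.21, 0.07 and 0.03 in heterozygotes and 0.20, -0.27, 0.61 and 0.71 in knockouts. Birc5, or survivin, sits with Aurkb in the passenger complex and passed in knockouts (0.55 ± 0.13, adjusted p = 0.0194), and not in heterozygotes (0.25 ± 0.13, adjusted p = 0.206).

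Kif11 had log2 levels of 1.14, 0.16, -0.75 and -0.73 in female heterozygotes and of -0.18, -0.42, -1.17 and -0.48 in female knockouts. In males, Kif11 levels were 1.09, 0.39, -0.14 and -0.10 in heterozygotes and 0.48, 0.01, 0.16 and -0.17 in knockouts. Kif11, the kinesin that pushes spindle poles apart, was higher in male than in female knockouts (0.69 ± 0.19, adjusted p = 0.0371) and not called in heterozygotes (0.35 ± 0.19). That Kif11 call was kept under 3 of 12 other settings. Bub1b had log2 levels of 0.38, -0.12, -1.07 and -0.97 in female heterozygotes and of -0.06, -0.73, -1.02 and -0.78 in female knockouts. In males, Bub1b levels were 0.59, 0.46, 0.18 and 0.44 in heterozygotes and 0.41, 0.04, 0.08 and 0.06 in knockouts. Bub1b, the checkpoint protein BubR1, was higher in males by 0.86 ± 0.21 (adjusted p = 0.0158) and 0.80 ± 0.21 (adjusted p = 0.0252), with the male samples between 0.04 and 0.59. Cdc20 was higher by 0.71 ± 0.18 (adjusted p = 0.0210) and 0.61 ± 0.18 (adjusted p = 0.0461). Ttk passed in knockouts (0.76 ± 0.16, adjusted p = 0.0105), where its female level was low, and not in heterozygotes (-0.12 ± 0.16). Whether a sex difference changed with genotype is the same contrast as the sex difference of the knockout effect, which was called for no member.

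Among replication and G1 genes, Mcm7 was higher in heterozygous males (0.63 ± 0.13, adjusted p = 0.00945) and Prim1 in knockout males (0.45 ± 0.14, adjusted p = 0.04997). That Prim1 call was kept under 3 of 12 other settings. Ccne1 was the 1 member lower in males (-0.78 ± 0.23 in heterozygotes, adjusted p = 0.0396, and -0.51 ± 0.23 in knockouts, adjusted p = 0.174). Ccne2 had the largest difference in heterozygotes, -1.32 ± 0.45, but its spread over days was wide (adjusted p = 0.0620), and without E12.5 it was called at -1.94 ± 0.31. In knockouts Ccne2 differed by 0.47 ± 0.45 (adjusted p = 0.539).

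Of 47 other mitosis genes 18 were higher in heterozygous males and 33 in knockout males, and none was lower. Of 40 other replication genes 6 and 7 were higher and 1 and 0 lower. Of all genes 11.7% were higher and 12.1% lower in heterozygous males, and 8.99% and 9.05% in knockout males. Among the highest, Cdc25c, the phosphatase that activates Cdk1, differed by 1.08 ± 0.20 in heterozygotes and 1.18 ± 0.20 in knockouts, Pttg1, or securin, by 0.98 ± 0.19 in heterozygotes, and Cenpe, a kinetochore kinesin, by 1.22 ± 0.34 in knockouts. Rnaseh2a, a subunit of an RNase that clears RNA from DNA, differed by 0.92 ± 0.15 and 0.71 ± 0.15. Tk1, thymidine kinase, differed by 0.77 ± 0.18 in knockouts. Germ cell markers had medians of 0.05 in heterozygotes and -0.37 in knockouts (male minus female), where their levels were low in both sexes. Sertoli cell and gonad markers had medians of 2.78 and 2.52, and pre-granulosa markers of -2.76 and -2.88. Erythroid markers had medians of 0.02 and -1.62. In knockouts 7 of the 8 erythroid markers were higher in males at E12.5 (median 0.57), and all 8 were lower at E14.5 (-2.56) and E15.5 (-3.53). The part of these markers in the sex differences was not tested.

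The counts of sex differences depended on the terms and samples in the fit. Without the term for day 4 members were called in heterozygotes and 2 in knockouts, and with only the 2 groups compared 5 and 7. With E12.5, E13.5, E14.5 or E15.5 left out 11, 3, 3 and 4 were called in heterozygotes, and 8, 3, 2 and 5 in knockouts. Shares of all genes called in these fits are not given here. A shift of the members and a general change in power therefore cannot be told apart.

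Over the 4 days, members fell in heterozygotes of both sexes. In female heterozygotes 9 fell and none rose (26 not called), against 3.33% of all genes that fell and 6.44% that rose, 9.77% in all. In male heterozygotes 9 fell and none rose, against 5.82% and 10.7%, 16.5% in all. In female knockouts 1 fell and 3 rose, against 1.03% and 2.33%, 3.36% in all, and in male knockouts 1 fell and none rose, against 2.53% and 3.29%, 5.82% in all. The median log2 slope per day of the members was -0.26 and -0.22 in female and male heterozygotes, and 0.13 and -0.03 in the knockouts, against 0.04, 0.02, 0.02 and 0.01 over all genes. Ccnd1, Mcm2, Pola1, Top2a and Ttk fell in both heterozygous groups. The share of all genes that fell in both was not computed.

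Mcm2, a helicase subunit, fell in both heterozygous groups. Mcm2 had log2 levels of 1.01, 0.21, -0.89 and -1.09 in female heterozygotes and of 0.49, 0.0012, -0.33 and -0.37 in female knockouts. In males, Mcm2 levels were 0.97, 0.57, -0.44 and -0.51 in heterozygotes and 0.63, 0.32, -0.09 and -0.31 in knockouts. All 4 groups were ordered by day from high to low, with log2 slopes of -0.74 ± 0.10 in female heterozygotes (adjusted p = 0.00241) and -0.55 ± 0.10 in male ones (adjusted p = 0.00572). In knockouts the slopes were -0.29 ± 0.10 and -0.32 ± 0.10 in females and males, not called. Top2a, with the levels above, had slopes of -0.89 ± 0.16 (adjusted p = 0.00751) and -0.67 ± 0.16 (adjusted p = 0.0175) in female and male heterozygotes. Ccnd1 was called in every group, at -0.41 ± 0.09, -0.38 ± 0.09, -0.55 ± 0.09 and -0.51 ± 0.09 per day in female heterozygotes, female knockouts, male heterozygotes and male knockouts. Its samples were also ordered by day from high to low in all 4 groups.

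Pola1 fell by 0.37 and 0.40 per day on the log2 scale in female and male heterozygotes, and Ttk by 0.41 and 0.41. The other calls in female heterozygotes were Mcm7 (-0.38 ± 0.09 per day), Kif11 (-0.65 ± 0.14), Bub1b (-0.50 ± 0.11) and Ccna2 (-0.49 ± 0.13). In male heterozygotes they were Mcm5 (-0.39 ± 0.11 per day), Gmnn (-0.37 ± 0.11), Pcna (-0.31 ± 0.09) and Ccne1 (-0.44 ± 0.11). In female knockouts Pcna (0.39 ± 0.09, adjusted p = 0.0389) and Ccne1 (0.46 ± 0.11, adjusted p = 0.0487) rose. The third to rise was Mki67, which encodes the proliferation antigen Ki-67 (0.49 ± 0.10, adjusted p = 0.0261). Mki67 had log2 levels of -0.44, -0.29, -0.21 and -0.41 in female heterozygotes and of -0.62, -0.14, 0.08 and 0.93 in female knockouts. In males, Mki67 levels were 0.31, -0.39, 0.04 and -0.25 in heterozygotes and 0.25, -0.0007, 0.30 and 0.32 in knockouts. The female knockout at E15.5 was the highest of all 16 samples for Mki67.

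The counts of slopes called depended on the days included, and shares of all genes called with a day left out are not given here. Without E12.5 none of the members was called in any group, and without E15.5 the counts were 3, 0, 0 and 0 in female heterozygotes, female knockouts, male heterozygotes and male knockouts. The 3 then called in female heterozygotes were Kif11, Mcm2 and Ccne2, the last with a rise of 1.42 ± 0.20 per day. With arrays scaled as deposited the all-gene median slope was 0.17 and 0.14 in female and male heterozygotes, and 2 and 3 members fell. The array of the female heterozygote at E12.5 had the fewest probes at the limit for weak signals, 1554, while the highest number was 11174. The part of this in the slopes was not tested. Other replication and mitosis genes fell in heterozygotes too: 7 of 40 and 7 of 47 in females, and 10 of 40 and 9 of 47 in males, where 1 mitosis gene, Cdc25b, rose (0.97 ± 0.22 per day). Of all genes 3.33% fell and 6.44% rose in female heterozygotes, and 5.82% fell and 10.7% rose in male ones. Smc2, a condensin subunit, had slopes of -1.01 ± 0.15 in female and -1.07 ± 0.15 in male heterozygotes. In knockouts 0 of 40 other replication genes were called in either sex by limma (6 in females and 5 in males had an unadjusted p under 0.05), and 0 and 3 of 47 mitosis genes, with 11 in each sex at an unadjusted p under 0.05. Of all genes 3.36% were called in female knockouts and 5.82% in male knockouts.

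Across the 12 comparisons 30 of the 35 members were called at least once, and Mcm6, Rrm1, Ccnd2, Cdk2 and Bub1 were not. The share of all genes called at least once was not computed, so this count has no background beside it. A single comparison called up to 34.3% of all genes. Cdk2 had log2 levels of 1.13, -0.62, 0.07 and 0.24 in female heterozygotes and of 0.34, -0.49, -0.26 and 0.15 in female knockouts. In males, Cdk2 levels were -0.41, -0.91, 0.45 and 0.64 in heterozygotes and -0.63, -0.61, 0.83 and 0.52 in knockouts. Cdk2, the kinase partner of cyclins E and A, had the largest upward slope of the members in male knockouts, 0.49 ± 0.23 per day, which did not pass (adjusted p = 0.231). Ccnd2 was the lowest at E14.5 in both male groups, with -1.03 in heterozygotes and -0.39 in knockouts. Bub1, a kinase of the spindle checkpoint, has 2 probes that disagreed. The probe used gave knockout differences of -0.06 in females and 0.02 in males, and the other -2.22 and -0.94. On that other probe the levels were 0.39, 0.73, 1.55 and 0.29 in female heterozygotes and -1.25, -1.68, -1.57 and -1.42 in female knockouts, with no overlap. In males they were 0.53, 0.50, 0.38 and -0.18 in heterozygotes and -0.29, -0.82, -0.54 and -0.86 in knockouts, again with no overlap. With the mean of both probes Bub1 was called in females (-1.14 ± 0.14, adjusted p = 0.0012) and males (-0.46 ± 0.14, adjusted p = 0.0342), so its value depends on the probe. For the other 11 members with several probes above the limit in all samples, the mean knockout differences were compared between probes. They lay at most 0.36 apart in females and 0.29 in males. The sign turned between probes for some, as for Kif11 in males (-0.19 and 0.11) and Cdk2 in females (-0.27 and 0.05).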

How the data were processed

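Whole gonads were measured on 1-colour Agilent arrays, 1 sample for each sex, genotype and day. The deposited values are linear ratios of a probe's signal to its typical signal, as read from the values. Agilent Feature Extraction 9.5 is named per the submitters' processing notes, and how the authors scaled, centred and combined duplicates is not given in the sources used here. Limits for weak signals were recovered from shared values (tolerance 0.0002, log2). Of 41267 probes, 93 controls were left out, 32664 carry 1 symbol, 45 several and 8465 none. Arrays were scaled to the same 75th percentile over 28373 probes never at a limit, which moved them by -0.26 to 0.33 (log2). Each probe got a common limit, and log2 was taken. Genes above it in at least 4 of 16 samples were kept, with 1 probe each (fewest samples at the limit, then highest mean). The values are ratios, so this mean does not rank probes by signal strength. For Bub1 it decided between the 2 probes (-0.07 for the probe used and -0.27 for the other).

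Models were fitted with limma 3.58.1 in R 4.3.3 (lmFit, eBayes with trend) on all 16 samples, with calls at p under 0.05 after Benjamini-Hochberg adjustment across 16581 genes. Knockout effects had a term per sex and day and sex effects a term per genotype and day (6 residual degrees of freedom each), slopes 8 and changes of the knockout effect 4. Errors after ± are standard errors. Days are the replicates, so real changes between days count as error. Samples of the same day deviated together (r of 0.187 to 0.758 over genes), so days were kept as blocks. Values in every sample are given for called members and for the 3 largest differences of a comparison, and other genes among the 3 highest and lowest called. The test of whether the change per day differs between the sexes was added after seeing the data. Members and lists were chosen with earlier results of these data known. The steps were tested on simulated data. Alternatives covered scaling, filter, limit, probes, day term, groups and days left out.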

Additional observations from a re-analysis of the deposited data

Results flagged for a closer look

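Of 140 groups of 4 samples looked at (35 members in 4 groups), 6 had a sample far from the other 3, about the number that chance alone would give at 1 in 20 groups. Cdk1 was far above the other days at E12.5 in female heterozygotes (log2 level 0.04) and in female knockouts (-0.29), and Cdc20 at E12.5 in female heterozygotes (0.34). Bub1b was far above the other days at E12.5 in male knockouts (0.41). Ccnd2 was far below the other days at E12.5 in female knockouts (0.0), and Birc5 at E13.5 in male heterozygotes (-0.21). In 5 of the 6 cases the day was E12.5. Each group holds 1 sample per day, so a change with age and a deviating sample cannot be told apart.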

How the results depend on the processing

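The 65 calls of single members were recomputed under 708 alternatives in all. The direction was kept in all of them and the call in 408, and 300 no longer passed. Calls that passed every setting using all 4 days were 1 of 6 (Ttk) and 0 of 2 for the knockout effects in females and males, 4 of 9 and 2 of 12 for the sex effects in heterozygotes and knockouts, 2 of 9 and 3 of 9 for the slopes in female and male heterozygotes, and 0 of 4 and 1 of 1 in female and male knockouts; they were 0 of 13 for the change of the knockout effect in females. Without the replicate block (no term for day), 2 members were called for the knockout effect in females, 0 in males, 4 for the sex effect in heterozygotes and 2 in knockouts. With only the 2 groups compared, 2 were called for the knockout effect in females, and 5 and 7 for the sex effects in heterozygotes and knockouts. With arrays scaled as deposited, 1 was called for the knockout effect in males, 2, 2 and 3 for the slopes in female heterozygotes, female knockouts and male heterozygotes, and 3 for the change in females. With no filter on low values 3 were called for the change in females, with quantile normalization 2 for the slope in male knockouts, and with the mean of all probes 1 for the change in males. The cause of these shifts was not tested. Shares of all genes called under these settings, or with a day left out, are not given here. With 1 day left out, which removes samples, counts ranged from 1 to 8 and 0 to 2 for the knockout effects in females and males, from 3 to 11 and 2 to 8 for the sex effects in heterozygotes and knockouts, from 0 to 7 and 0 to 3 for the slopes in female heterozygotes and knockouts, from 0 to 8 and 0 to 1 in male ones, and were 0 for the change in females. Signal over background is not in the files used here, so how far weak signals limit single members is known only from the limit, above which all 35 read in all samples.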
